A study of Homo sapiens with 6 samples.

Results

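The metallothioneins examined here are MT1A, MT1B, MT1E, MT1F, MT1G, MT1H, MT1L, MT1X and MT2A, with MTF1, the transcription factor that switches these genes on. All non-control probes carrying one of these 10 gene names in the scanner annotation were used, which gave 17 probes (15 of metallothioneins and 2 of MTF1) among the 41000 probes and 29123 gene names of the Agilent Whole Human Genome array. The study used established human ovarian cancer lines modified to alter Hic-5, an adaptor protein of focal adhesions encoded by TGFB1I1. In SKOV3 cells, the stable clones sh-S1 and sh-S2, which carry lentiviral pLKO.1-puro shRNAs against Hic-5, were each compared with 1 mock-transfected Ctrl clone. In A2780s cells, 1 stable clone with Hic-5 in the pCMV6 vector (pCMV-Hic-5) was compared with 1 mock-transfected Ctrl clone that holds the empty vector. Each pair of RNAs was hybridized on 2 arrays with the dyes Cy3 and Cy5 exchanged, giving 4 SKOV3 arrays and 2 A2780s arrays, and the labels name no metal, hormone or cytotoxic drug given to these cells other than the antibiotic that selects the clones. Both arrays of a clone hold the same RNAs and count as 1 replicate, so SKOV3 has 2 replicates set against a single Ctrl RNA, and A2780s has 1.

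Metallothioneins are small cytoplasmic proteins in which cysteines bind zinc, copper and cadmium. They buffer these metals and scavenge oxidants, and in cancer cells they have been studied for their capacity to bind cisplatin. Free zinc activates MTF1, which binds metal response elements in the metallothionein promoters, and glucocorticoids induce MT2A and several MT1 genes through the glucocorticoid receptor. The human MT1 genes and MT2A lie side by side on chromosome 16 and arose by duplication, so their transcripts are alike over long stretches.

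That likeness reaches into the probes themselves, which are 60 bases long. The probe of MT1H and a probe of MT1X are shown first because they overlap over 58 bases, of which 55 are identical, and capitals mark the 3 that differ.
MT1X A_23_P303242: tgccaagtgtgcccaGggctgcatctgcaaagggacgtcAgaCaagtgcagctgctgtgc
MT1H A_23_P414343: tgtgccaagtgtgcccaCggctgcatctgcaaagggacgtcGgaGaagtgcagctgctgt
The probe of MT1A and that of MT1HL1, a metallothionein-like gene outside the cluster that was added after its values had been seen, align over 54 bases, of which 50 are identical. Capitals again mark the bases that differ.
MT1A A_23_P54840: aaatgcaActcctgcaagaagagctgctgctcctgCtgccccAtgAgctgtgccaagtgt
MT1HL1 A_23_P163782: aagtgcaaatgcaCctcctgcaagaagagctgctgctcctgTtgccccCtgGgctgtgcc

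In the hg19 coordinates of the array files, the MT1X probe lies at chr16:56717898-56717957 and the MT1HL1 probe at chr1:237167547-237167606. The MT1A probe is assigned to chr16:56673205-56673808, a span of 604 bases for its 60, so it is split over more than 1 exon. For MT1H the file gives chr16:56670790-56670849, between the probes of MT1JP and MT1A, whereas RefSeq (GRCh38.p14) orders the MT1H gene between MT1G and MT1X. The annotation of the array lists RefSeq transcripts of 4 genes for the MT1H probe (MT1H, MT1JP, MT1L and MT1X), of 3 genes for the MT1X probe (MT1A, MT1H and MT1X) and of MT1A and MT1M for the MT1A probe. The values of these 3 probes can therefore not be assigned to 1 gene with certainty. The same holds for the MT1HL1 probe, which is listed with MT1H, MT1HL1 and MT1M. The other metallothionein probes among the members are listed with a single gene or, for 2 probes of predicted or Ensembl transcripts, with no RefSeq transcript. By exact letters, the MT2A probes A_23_P106844 and A_23_P252413 share no run longer than 7 bases with a probe of any other metallothionein gene, while the third, A_24_P361896, shares 17 with the probe of MT1F.

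Promoters in the RefSeq table (GRCh38.p14, 250 bases before to 50 after the start) were matched for 5 of the 10 members and searched on both strands for the core of the metal response element, spelled as TGCACNC or TGCGCNC. The window of MT2A held 8 matches and that of MT1H also 8, MT1X had 4 and MT1B had 3, none of them overlapping, while the window of MTF1 held 0. Of the 35116 promoters listed, 29.6% held at least 1 match, 0.0199% held at least 8, 0.601% at least 4 and 2.3% at least 3. The 150 bases before the start of each of the 4 metallothionein genes are shown with matches in capitals, and in MT2A the first capitals end a match that begins just upstream.
MT2A chr16:56608434-56608583, plus strand: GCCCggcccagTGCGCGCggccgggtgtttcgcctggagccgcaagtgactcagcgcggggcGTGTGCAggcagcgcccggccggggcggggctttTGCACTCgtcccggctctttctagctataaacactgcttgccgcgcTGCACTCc
MT1H chr16:56669664-56669813, plus strand: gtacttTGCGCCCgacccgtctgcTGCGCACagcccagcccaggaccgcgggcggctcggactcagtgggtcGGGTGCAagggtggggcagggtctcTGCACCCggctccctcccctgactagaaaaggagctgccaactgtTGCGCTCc
MT1X chr16:56682320-56682469, plus strand: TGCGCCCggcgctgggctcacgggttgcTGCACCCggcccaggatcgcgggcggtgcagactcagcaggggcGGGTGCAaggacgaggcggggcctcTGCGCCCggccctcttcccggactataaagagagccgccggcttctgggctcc
MT1B chr16:56651736-56651885, plus strand: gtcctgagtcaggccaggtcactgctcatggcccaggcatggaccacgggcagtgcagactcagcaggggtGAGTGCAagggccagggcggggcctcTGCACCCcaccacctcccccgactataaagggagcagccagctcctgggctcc
A match describes the letters of the window and does not show that a factor binds there.

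Ratios are given as log2 of modified clone over Ctrl, after normexp background correction and loess normalization of the dyes, so that -1 is a level 2-fold lower than in the Ctrl. Median net signals per SKOV3 array were 373 to 530.5 units in Cy3 and only 9.52 to 25.5 in Cy5, and no member spot was saturated or carried an outlier flag. TGFB1I1 itself did not differ in SKOV3, with log2 ratios of -0.16 and 0.12 for sh-S1 (in Cy5, then in Cy3), -0.12 and 0.28 for sh-S2, and limma's adjusted p = 0.855. The paper selected these clones by their Hic-5 mRNA and protein, and no fall of TGFB1I1 RNA is seen here. Directions are therefore given for RNAs named only by their labels. In A2780s the ratios of TGFB1I1 were 4.05 and 2.60.

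The metallothioneins fell steeply in the SKOV3 comparison, which asks what changes when Hic-5 is knocked down. Of the 14 member probes that could be tested, 12 probes of 8 genes were called lower in the clones (at least 2-fold, with limma's Benjamini-Hochberg adjusted p over all 24958 tested probes not above 0.05), and 0 were higher. Across all tested probes 4.16% were called lower and 2.98% higher. The 12 probes were lower on 4 of 4 arrays, their mean log2 ratios ran from -4.61 to -2.93 with a median of -3.96, corresponding to levels 7.63- to 24.5-fold lower, and limma's adjusted p ran from 2.58e-06 to 5.81e-06. These p-values rest on the spread between 2 clones, which eBayes draws towards the spread over all tested probes. They leave out the spread of the Ctrl and that between the dye orientations, which were averaged within each clone. Across the 12 probes the SD of the clones ran from 0.02 to 0.30, but the standard error used only from 0.09 to 0.12.

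MT2A, the most widely expressed human metallothionein, has 3 probes. In its probe A_24_P361896 (chr16:56643281-56643340, hg19) the net signal of the Ctrl was 253695 and 221641 in Cy3 and 67259 and 108574 in Cy5, against 13292 and 16047 for the clones in Cy3 and 1161 and 1219.6 in Cy5. The log2 ratios of that probe were -3.27 (sh-S1 in Cy5), -5.54 (sh-S1 in Cy3), -3.66 (sh-S2 in Cy5) and -5.98 (sh-S2 in Cy3), with a mean of -4.61 ± 0.30 (SD, n = 2 clones) and limma's adjusted p = 2.93e-06. It ranked 7th from the lowest of the 24958 probes. In the same order of arrays, A_23_P106844 gave -2.94, -5.47, -3.30 and -5.34, and A_23_P252413 gave -2.81, -4.92, -3.10 and -4.79. Their means were -4.26 and -3.90, so by the mean over both dyes all probes of MT2A fell by more than 14-fold. With the clone in Cy5 alone the falls were smaller.

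Among the MT1 genes, MT1E fell most by the mean of the 4 arrays, in A_23_P206724, though not with the clone in Cy5 alone, where A_23_P60933 of MT1G was lowest (-3.66 against -3.33). MT1E had -3.35, -5.20, -3.32 and -5.62 on the 4 arrays and a mean of -4.37 ± 0.14 (SD over the 2 clones), limma's adjusted p being 2.58e-06. MT1B, a gene known for restricted expression among tissues, gave -3.14, -5.03, -3.63 and -4.77, with a mean of -4.14. MT1G, a metallothionein often silenced in tumours, was measured by 2 probes that fell by different amounts. The means were -4.09 for A_23_P60933 (-3.63, -4.51, -3.69 and -4.53) and -2.93 for A_23_P206707 (-2.39, -3.39, -2.46 and -3.49), the latter being the smallest fall among the 12. The spread between the clones was 0.03 and 0.06 (SD) in these probes, which does not measure error between probes. For A_23_P206707 the net signals of the clones in Cy5 were only 47.3 and 77.6. With the processed signals of the deposited files the means were -4.10 and -3.26. The difference between the probes was not tested.

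MT1L, which RefSeq lists as a transcribed pseudogene, gave -3.51, -4.29, -3.48 and -4.38, with a mean of -3.92. MT1X, one of the commonly expressed MT1 isoforms, fell in A_24_P125096 (-2.57, -5.11, -3.07 and -5.29; mean -4.01) and in A_23_P303242 (-3.10, -4.38, -3.32 and -4.43; mean -3.80). The MT1H probe followed with -2.75, -4.38, -2.86 and -4.37 (mean -3.59), and the MT1A probe with -1.92, -4.22, -2.31 and -4.38 (mean -3.20). Without the 3 probes listed with several genes, 9 probes of 6 genes remained among those called lower, with means over the same range of -4.61 to -2.93. These 9 are not free of shared sequence. Of the 12 probes, 5 share an exact run of 20 or more bases with a probe of another gene. They include A_23_P206724 of MT1E and A_24_P125096 of MT1X, with runs of 23, which are among the 9. The MT1HL1 probe, which is listed with MT1H and MT1M as well, was also called lower. Its mean was -4.36 ± 0.20 (SD, n = 2 clones), with limma's adjusted p = 2.58e-06. The part that shared sequence between probes has in these values was not tested.

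**Figure D1:**
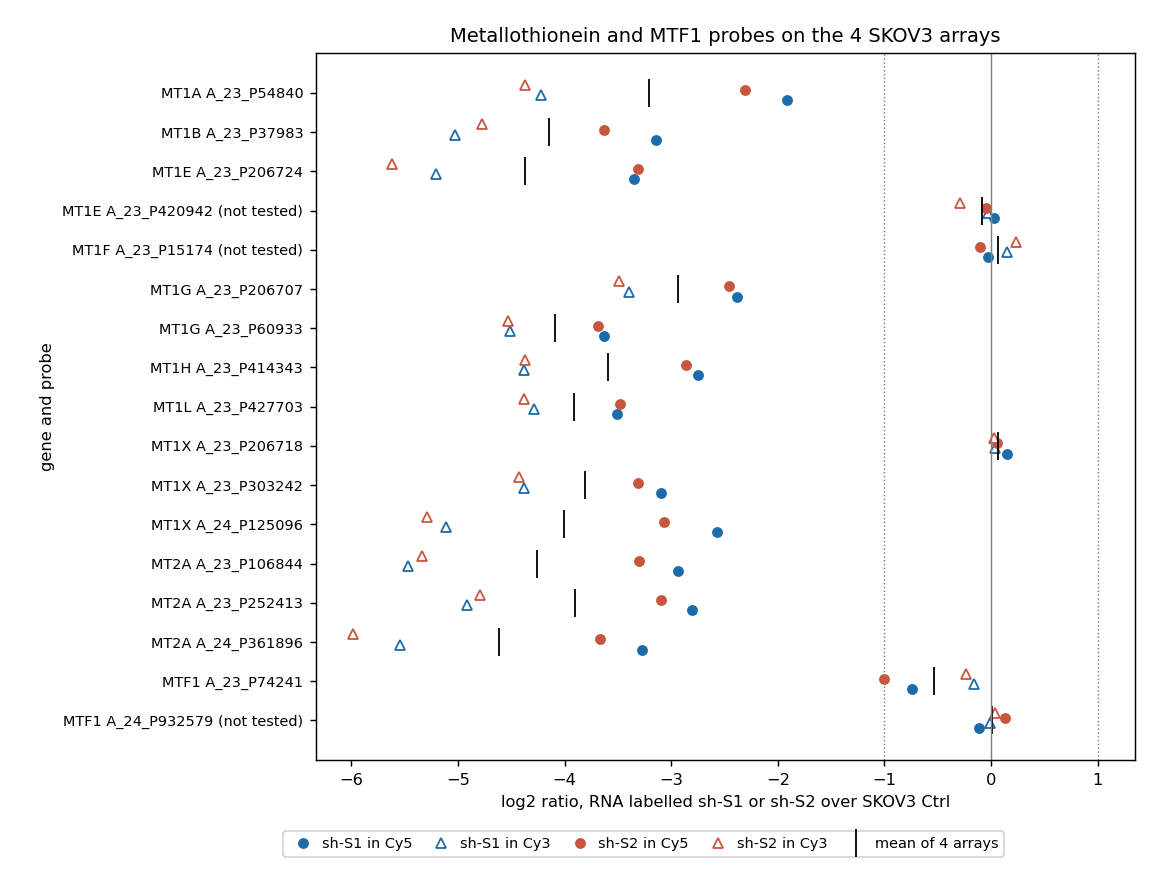
Log2 ratio of each of the 17 member probes (rows) on the 4 SKOV3 arrays, with circles for arrays that hold the clone in Cy5, triangles for those that hold it in Cy3, black ticks for the mean of the 4 arrays and dotted lines at a 2-fold difference. The 12 probes called lower have means between -4.61 and -2.93 and lie further left when the clone was in Cy3, whereas the means of MT1F, of the other probes of MT1E and MT1X and of the dim MTF1 probe lie between -0.09 and 0.07 and that of A_23_P74241 of MTF1 at -0.53.

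The size of the fall differed with the dye in all 12 probes, as the plot of the SKOV3 ratios shows. With the clone in Cy5 the log2 ratios were between -3.69 and -1.92, and with the clone in Cy3 between -5.98 and -3.39. Each orientation alone called the 12 probes lower. The clones themselves differed little. The mean ratio of sh-S2 was lower than that of sh-S1 in 12 of 12 probes, by a median of 0.11 log2 units and at most 0.42. Over all tested probes the median of this difference was -0.01 and that of its size 0.14, and the share with each sign was not counted. Within single dyes the sign was not kept in all 12 probes. There sh-S2 minus sh-S1 ran from -0.50 to 0.03 in Cy5 and from -0.44 to 0.26 in Cy3. No test of this difference was possible, since each clone is 1 RNA and both share the Ctrl.

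Not every probe carrying a metallothionein name moved. A_23_P206718, a probe of MT1X designed on an Ensembl transcript at chr16:56716376-56716435 (hg19), was well above background in every RNA and gave 0.15, 0.03, 0.05 and 0.03 (mean 0.07, limma's adjusted p = 0.665). The probe A_23_P420942 of MT1E, designed on a predicted transcript, had a mean of -0.09 and could not be tested because too few of its spots were well above background, 3 of 4 in the Ctrl and 2 of 4 in the clones. The single probe of MT1F, a further member of the cluster, was in the same position, with a mean of 0.06 and a signal well above background in 2 of 4 Ctrl channels. For these probes no level of MT1F or of the alternative transcripts can be set against the other metallothioneins. MTF1 gave -0.74, -0.16, -1.01 and -0.23 in A_23_P74241, a mean of -0.53 ± 0.12 (SD, n = 2 clones) with limma's adjusted p = 0.00691, which was 1.45-fold lower and short of the 2-fold threshold. Its second probe, A_24_P932579, was too dim to be tested.

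In the A2780s comparison, which asks what changes when Hic-5 is overexpressed, metallothionein probes lay modestly higher. Of 16 member probes measured, 7 reached a mean of 1.5-fold higher with the same sign on both arrays and 0 reached it in the other direction, where 3.26% and 1.32% of the 30531 probes measured did so. With 1 pair of RNAs there is no replicate check and no test, and with normexp fitted on all spots 3 probes reached it. The 7 probes were A_24_P361896 of MT2A (0.81 with the clone in Cy5 and 0.85 in Cy3, a 1.78-fold mean), MT1L (0.67 and 0.68), MT1H (0.98 and 0.36), A_23_P60933 of MT1G (0.62 and 0.69), A_23_P303242 of MT1X (0.92 and 0.38), A_24_P125096 of MT1X (0.77 and 0.44) and A_23_P252413 of MT2A (0.66 and 0.53). The third MT2A probe and MT1E lay just under the threshold, with mean log2 ratios of 0.58 and 0.57.

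The dyes did not give the same size here either. MT1A had 0.84 with the clone in Cy5 and -0.05 in Cy3, and A_23_P206707 of MT1G had 0.25 and -0.17, so neither kept its sign. MT1B lay at 0.53 and 0.35. The mean ratios in A2780s of the 12 probes called lower in SKOV3 ranged from 0.04 to 0.83 with a median of 0.60. Over all 30531 probes measured the median was -0.01, and that of all probes called lower in SKOV3 was not taken. The probe of MT1F was at 0.08 and 0.13, and A_23_P74241 of MTF1 at 0.17 and 0.05. If 1.5-fold was required on each array, 3 of the 7 probes remained, those of MT1G, MT1L and MT2A with the closest values in both dyes.

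**Figure D2:**
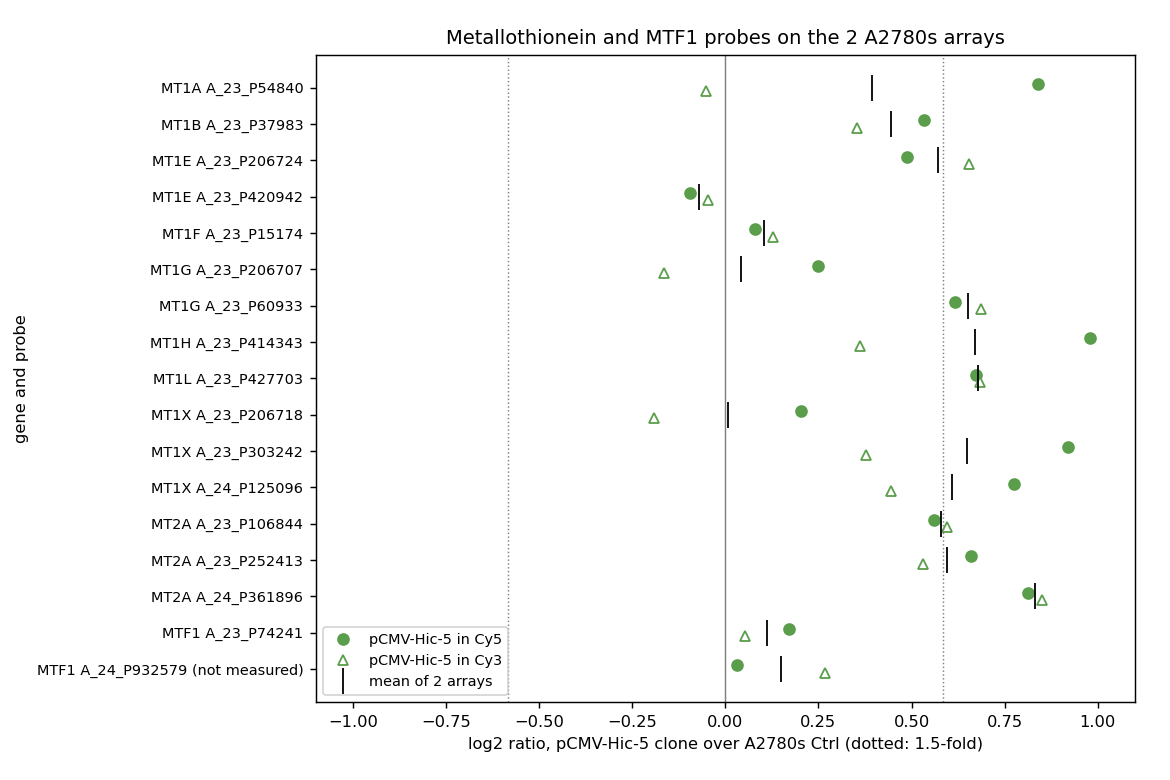
Log2 ratio of the 17 member probes (rows) on the 2 A2780s arrays, with filled circles for the array that holds the pCMV-Hic-5 clone in Cy5, open triangles for Cy3, black ticks for the mean and dotted lines at 1.5-fold. The means of 7 probes lie past the right dotted line, the largest being 0.83 for A_24_P361896 of MT2A, and none lies past the left one.

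Levels of each probe were also followed through the 5 RNAs, as log2 levels per channel after scaling between arrays. A probe is compared only with itself here. For A_24_P361896 of MT2A, the level was 16.84 to 18.86 in the SKOV3 Ctrl (4 arrays), 12.90 to 13.57 in sh-S1, 12.88 to 13.30 in sh-S2, 10.20 to 10.21 in pCMV-Hic-5 and 9.36 to 9.39 in the A2780s Ctrl. The ranges of sh-S1 and sh-S2 overlap, and all other neighbours in this order are apart. MT1E followed the same order, with mean levels of 14.55, 10.24, 10.12, 8.35 and 7.78.

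In all 12 probes the levels of both SKOV3 clones lay below every SKOV3 Ctrl level and above every level of either A2780s RNA. Clone levels below the Ctrl are no separate result, since the probes had been called lower on the same arrays. The ranges of sh-S1 and sh-S2 overlapped in 11 of the 12, and pCMV-Hic-5 lay above the A2780s Ctrl without overlap in 10, the exceptions being MT1A and A_23_P206707 of MT1G. For these orders no share over all probes was counted, so they cannot be read as particular to the metallothioneins. The A2780s Ctrl was lower than the SKOV3 Ctrl by 4.59 to 8.40 log2 units, with a median difference of -7.19, and the smallest gap was that of MT1A. The cell lines were hybridized on different slides, so cell line and slide cannot be told apart. An A2780s Ctrl entirely below the SKOV3 Ctrl was found in 30.5% of the 24772 tested probes with levels on all arrays, and in 96.6% of the 1031 of these that were called lower in SKOV3, so the metallothioneins shared this order with nearly all such probes. The probe of MT1F and the other probes of MT1E and MT1X had overlapping levels in the Ctrl RNAs of both lines, for example 9.43 to 9.81 for A_23_P206718 of MT1X in the SKOV3 Ctrl against 9.19 to 9.69 in the A2780s Ctrl.

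**Figure D3:**
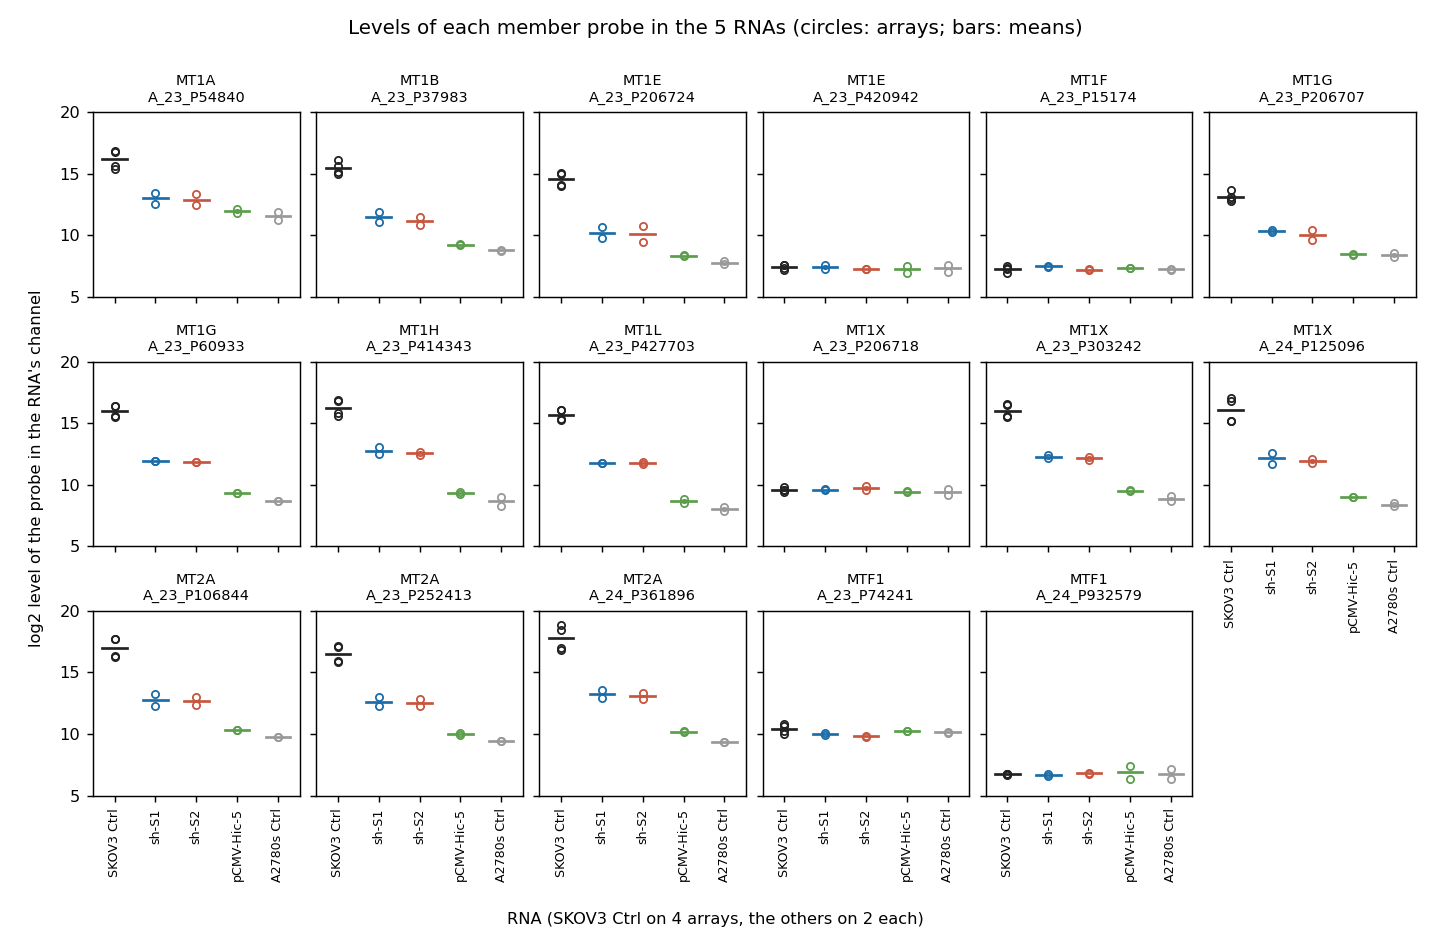
Log2 level of each of the 17 member probes in the 5 RNAs (one panel per probe, circles for single arrays and bars for means, SKOV3 Ctrl on 4 arrays and the other RNAs on 2 each). In the 12 probes called lower in SKOV3 the level steps down from the SKOV3 Ctrl through sh-S1 and sh-S2 to the A2780s RNAs, and for MT2A A_24_P361896 it runs from a highest 18.86 to a lowest 9.36.

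Other genes of metal handling did not move as a block with the metallothioneins. SLC30A1, the zinc exporter of the plasma membrane and a classical target of MTF1, gave -0.16, 0.29, -0.57 and 0.20 in SKOV3 (mean -0.06, limma's adjusted p = 0.725), and its log2 ratios in A2780s were 0.66 and 0.21. Its other probe, A_24_P937095, gave -0.61, 0.04, -1.04 and -0.54 in SKOV3 (mean -0.54, limma's adjusted p = 0.0238, under 2-fold) and a mean of 0.66 in A2780s, past 1.5-fold, so the probes of SLC30A1 differ. Read by the probe that is brightest over all arrays, none of the 8 tested zinc exporters of the SLC30 family passed the thresholds, and their median was 0.03, beside 0.01 over all 18740 genes tested, of which 647 were higher and 838 lower. Of the 14 zinc importers of the SLC39 family, 3 fell and 0 rose (median 0.04). The importers that fell were SLC39A4, which takes up dietary zinc (-1.71), SLC39A8, which also carries manganese and cadmium (-1.25), and SLC39A13 (-1.03). In A2780s, SLC39A14 was higher (1.02) and SLC39A8 lower (-0.64). Of 9 copper handling genes tested, SCO1, a copper chaperone for cytochrome c oxidase, rose by 1.17, none fell, and the median was -0.14. COX17, which hands copper to SCO1, was lower in A2780s (-0.67), while its other probe, A_23_P144244, had a mean of 0.24 there.

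The glucocorticoid list, which holds the receptor NR3C1 and genes known to respond to it, held calls in both directions. Of 9 genes tested 5 fell and 2 rose, with a median of -1.37. NR3C1 fell by 2.71 ± 0.05 (SD, n = 2 clones) with limma's adjusted p = 6.74e-06 and ratios of -1.84, -3.49, -1.97 and -3.52 on the 4 arrays. The others that fell were DUSP1, a phosphatase of MAP kinases (-2.31), the transcription factor CEBPD (-1.82), ERRFI1, an inhibitor of EGF receptor signaling (-1.44), and the kinase SGK1 (-1.37). The immunophilin gene FKBP5 (1.01) and the transcription factor KLF9 (1.81), both known to be induced by glucocorticoids, rose. The other FKBP5 probe, A_24_P38081, had a mean of 0.65 and was not called. In A2780s, DUSP1 (1.55), PER1 (0.77) and ERRFI1 (0.64) were higher by 1.5-fold or more, and NR3C1 did not pass the filter on dim probes.

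Genes that flank the metallothionein cluster on chromosome 16 did not pass the SKOV3 thresholds in any of 10 tested cases, and their median was -0.24. BBS2, a subunit of the ciliary BBSome, and NUP93, a nuclear pore protein, lie nearest to the cluster. BBS2 had a mean of 0.89 ± 0.07 (SD, n = 2 clones) with limma's adjusted p = 0.000659, and NUP93 one of -0.53 ± 0.03, both under 2-fold. HERPUD1, a gene of the endoplasmic reticulum stress response, was higher in A2780s (3.29). In the fixed list of other metallothioneins, which does not hold MT1HL1, MT1M (0.07), MT3 (-0.13) and MT1JP (-0.17) were tested and none was called in SKOV3. The MT1M and MT1JP probes were dim, with mean log2 levels of 7.77 and 8.02 in the SKOV3 Ctrl and 3 of 4 clone channels well above background. Their ratios therefore say little about these genes. Probes of MT1A and MT1HL1, listed with MT1M as well, and of MT1H, listed with MT1JP as well, were called lower. In A2780s, A_23_P315273, the dimmer of the MT3 probes, was lower (-0.71).

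**Figure D4:**
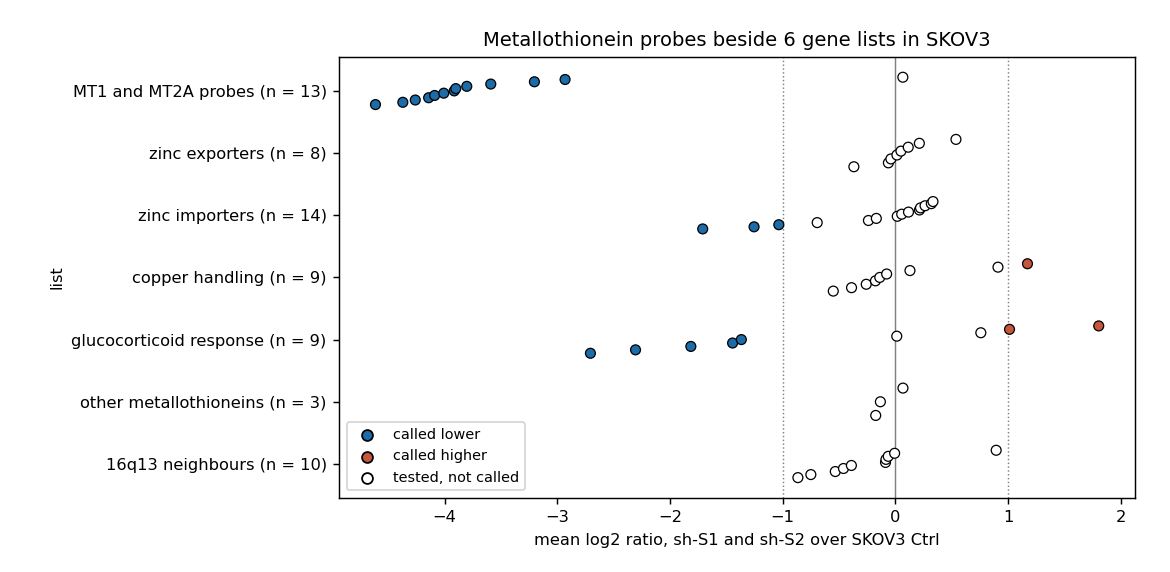
Mean log2 ratio of the SKOV3 clones over Ctrl for the 13 tested MT1 and MT2A probes and for the tested genes (brightest probe) of 6 lists, with blue for called lower, red for called higher, white for tested and not called, and dotted lines at 2-fold. The 12 metallothionein probes called lower lie at -2.93 or less, below all genes of the lists, of which NR3C1 is the lowest at -2.71.

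Several markers of the labelled cell type fell in the same RNAs. All 4 tested epithelial genes were called lower, KRT18 (-3.53), KRT19 (-2.55), KRT7 (-2.20) and KRT8 (-2.14). EPCAM (-0.10), well above background in 2 of 4 Ctrl channels, could not be tested. Of 4 ovarian markers PAX8 (-3.58) and ERBB2 (-2.28) fell, while WT1 (-0.02) and MUC16 (0.06) were not called. Over all 18740 genes tested, 838 were lower. The log2 of the summed level of KRT7, KRT8, KRT18 and EPCAM was 14.91 to 15.52 in the SKOV3 Ctrl, 12.14 to 12.62 in sh-S1, 12.10 to 12.77 in sh-S2, 11.03 to 11.11 in pCMV-Hic-5 and 10.71 to 10.82 in the A2780s Ctrl. The summed level of the 4 ovarian markers was 14.31 to 14.76 in the SKOV3 Ctrl, 11.36 to 12.11 in the SKOV3 clones and 10.64 to 11.25 in the A2780s RNAs. Markers of leukocytes, macrophages and endothelium (PTPRC, CD3E, CD68, PECAM1 and VWF) summed to between 9.60 and 10.06 in all RNAs, and neither of the 2 tested was called. In A2780s, KRT18 (0.59) was past 1.5-fold higher, 1 of 3 epithelial genes measured. The part of these markers in the metallothionein result was not tested, and in bulk RNA fewer cells of a type and less RNA per cell cannot be told apart.

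The genes whose 6 ratios lay closest to the metallothioneins were found by the root mean square difference from the median of the 13 MT1 and MT2A probes tested in both lines, over 17852 genes. They were the transcript ENST00000505048, annotated on the array as a keratin pseudogene (0.31 log2 units), IER3, an immediate early gene (0.32), DKK3, a secreted protein related to Wnt antagonists (0.38), LAMB3, a laminin subunit (0.38), and the class I pseudogene HLA-H (0.38). Their means in SKOV3 were -3.56, -3.51, -3.79, -3.64 and -3.41, and in A2780s 0.61, 0.24, 0.26, 0.01 and 0.40. Of the 6 ratios compared, 4 come from SKOV3 arrays that share 1 Ctrl RNA.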

How the data were processed

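The members and gene lists were chosen with earlier results of these data known. The authors extracted RNA with Trizol, labelled linearly amplified cRNA and deposited spot intensities from Agilent Feature Extraction (version 8.5.1.1 in the submitters' processing notes, 10.7.3.1 in the file headers), with Cy5 over Cy3 log10 ratios made from processed intensities and flags for spots well above background. The deposited series values are these log10 ratios, rounded. Here, mean intensity and median local background were corrected with normexp (offset 50; spots with a background over 1000 left out) and loess in limma 3.58.1 (R 4.3.3), and spots of a probe were averaged as log2 ratios. Channel levels were scaled with Aquantile. Probes entered if a line's Ctrl on every array, or a clone on both arrays, was well above background. For SKOV3, dye-swapped arrays were averaged per clone and tested against 0 with lmFit and eBayes, and probes needed 2-fold and an adjusted p not above 0.05. For A2780s, a mean of 1.5-fold with 1 sign on both arrays was required. All member probes were named, and from the lists the genes called in either line, NR3C1, SLC30A1, BBS2, NUP93, TGFB1I1 and the 5 genes nearest in pattern. A gene of a list was read by its brightest probe. Both rules were run on simulated data with known changes. Alternatives changed the background correction, normalization, filter, thresholds, arrays and clones used. Gene lists were also summarized by the mean over probes. The number of arrays and the dim Cy5 channel limit the precision.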

Additional observations from a re-analysis of the deposited data

Results flagged for a closer look

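The dim MTF1 probe A_24_P932579 was below the Ctrl on both arrays of sh-S1 and above it on both arrays of sh-S2, a difference of 0.14 log2 units between the clones (sh-S2 minus sh-S1), close to background and not tested. HERPUD1, a neighbour of the metallothionein cluster, lay at -1.11 and -1.72 in sh-S1 and at 0.76 and 0.23 in sh-S2, a difference of 1.92 log2 units that was not tested.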

How the results depend on the processing

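The 12 metallothionein probes called lower in SKOV3 were called lower under the 10 alternatives that kept both clones and both thresholds, with log2 ratios between -5.76 and -2.11. Without either clone no test remains, and the count by fold alone was again 12. By adjusted p alone 13 member probes passed, MTF1 being added. The count of genes called in the fixed lists was 11 and stayed between 9 and 15. In A2780s the count of member probes past 1.5-fold was 7. It was 3 with normexp fitted on all spots, the cause of which was not tested, 3 when 1.5-fold was required on each array and 0 at 2-fold, and no result was reversed. Signal over background limits what can be said of MT1F, the dim MTF1 probe and the predicted MT1E transcript. Each ratio already sets a clone against its Ctrl on the same array. Pairing between the SKOV3 and A2780s groups was not possible, because they lie in different cell lines and share fewer than 2 replicate numbers.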
